A study of Mus musculus with 25 samples.

Results

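The 10 genes described here encode chemokines linked to microglia and to their signalling partners: Ccl2, Ccl3, Ccl4, Ccl5, Ccl6, Ccl9, Ccl12, Cxcl10, Cxcl16 and Cx3cl1. They were taken by gene name from a table of 54532 genes, and all 10 were listed in it. The table holds FPKM, which are fragment counts scaled to gene length and library depth, for the cortex of 25 mice in 5 groups of 5. AD_Veh, AD_LowP and AD_HighP were 5xFAD mice given vehicle, a low dose or a high dose of P, and WT_HighP and WT_Veh were wild-type mice given the high dose or vehicle. P is a derivative of a natural product, and the sources used here do not give its identity, its doses, how long it was given or the age of the mice. The 5xFAD mouse carries human transgenes with familial Alzheimer's disease mutations, APP among them, under Thy1 regulatory sequences, so that neurons make the amyloid peptide and deposits form with age. It models amyloid deposition and not the whole disease.

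Chemokines are small proteins that steer cells through G protein-coupled receptors. Microglia, the resident macrophages of the brain, are a main source of CC chemokines such as Ccl3 and Ccl4 around amyloid deposits, whereas Cx3cl1 (fractalkine) is made mainly by neurons and binds Cx3cr1 on microglia. Most of the ligands are secreted, but Cx3cl1 and Cxcl16 are made as membrane proteins that proteases such as Adam10 and Adam17 release from the cell surface.

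Between 15518358 and 17698222 reads were assigned to genes per library. Thy1 was at 341 to 670 FPKM in the 15 5xFAD libraries, against 137 to 196 FPKM in the 10 wild-type libraries, so the genotype labels held in every library. Mouse App was at 123 to 160 FPKM in 5xFAD and 138 to 154 FPKM in wild-type libraries. The 13 microglia markers summed to 327 to 421 FPKM in AD_Veh and 119 to 172 FPKM in WT_Veh. Sums in the other groups were 295 to 398 FPKM in AD_LowP, 275 to 377 FPKM in AD_HighP and 130 to 184 FPKM in WT_HighP. Judged by Xist and transcripts of the Y chromosome, every group had 3 males and 2 females. In 5 libraries (2 of AD_HighP, 2 of WT_HighP and 1 of WT_Veh) the choroid plexus transcript Ttr was over 5 times its median. Levels also depended on the GC content of a gene. The slope of log2 level on GC content, per 10 percentage points, was 0.17 ± 0.05 in WT_HighP, against -0.15 ± 0.15 in WT_Veh (SD, n = 5 each). The slopes of the 5xFAD groups averaged -0.04 in AD_Veh, -0.04 in AD_LowP and 0.06 in AD_HighP.

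A gene was tested where it reached 0.5 FPKM in at least 5 libraries, which left 16450 genes and 8 of the 10 chemokines. Ccl2 and Ccl5 were too low to judge. Ccl2 reached 0.5 FPKM in 2 libraries and Ccl5 in 3, and their highest group medians were 5 and 8 reads. Ccl9 and Cxcl10 reached that level only in 5xFAD libraries (10 and 11 of them), so passing the filter already favoured a genotype difference for these genes. Ccl4 reached it in 15 5xFAD libraries and 1 wild-type library. At the other end, Cx3cl1 ranked 141 among the tested genes by mean level, with 171 FPKM over all libraries. Its reads, between 9327 and 15803 per library, set it apart from the other 9 chemokines, none of which exceeded 352 reads in a library.

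**Figure D1:**
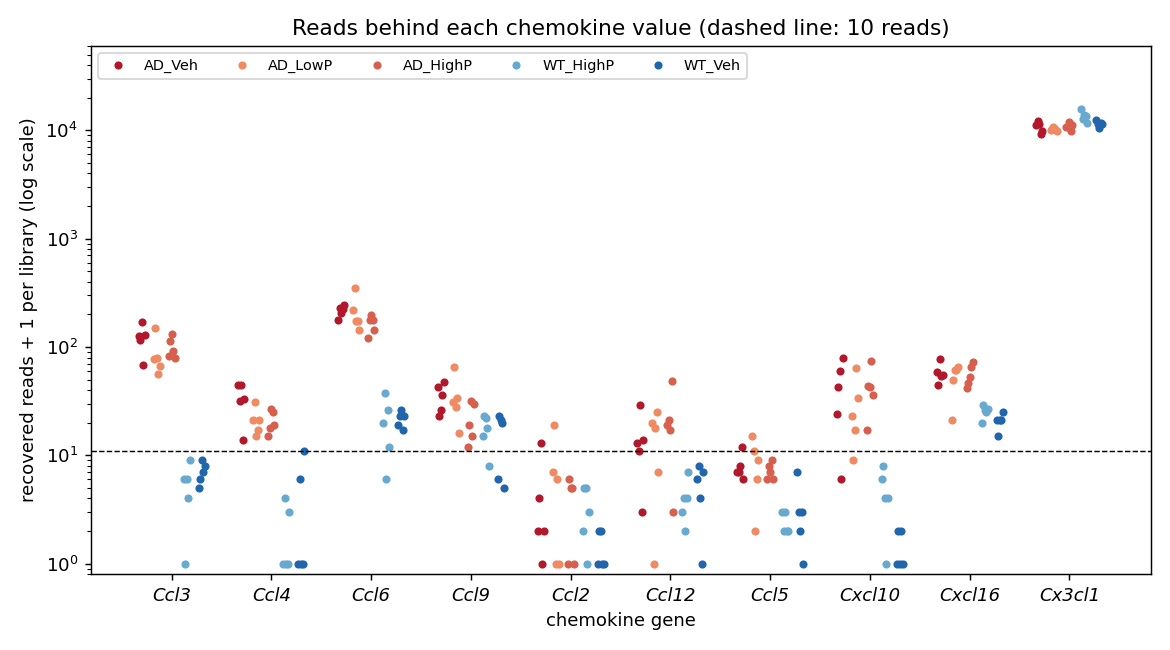
Reads recovered from the FPKM values for each chemokine gene (horizontal axis), plotted as reads + 1 on a log axis with 1 point per mouse, coloured by group; the dashed line marks 10 reads. Ccl2 and Ccl5 stay near or under the line in most mice, and Cx3cl1 lies at 9327 to 15803 reads.

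In AD_Veh cortex 5 of the 8 tested chemokines were higher than in WT_Veh: Ccl3, Ccl6, Ccl4, Cxcl10 and Cxcl16. Over all tested genes 2.83% were called higher in this comparison and 3.1% in either direction (limma, adjusted p under 0.05). Ccl3 and Ccl6 differed most, with folds of 10.1 and 6.57 on the log2(FPKM + 0.5) scale, a scale that understates the change of low genes. With voom on recovered reads, the log2 fold changes in AD_Veh against WT_Veh were 4.22 for Ccl3 and, more than 1.5 times the limma values, 4.42 for Ccl4, 5.34 for Cxcl10 and 1.54 for Cxcl16. The same 5 genes were called higher in AD_HighP against WT_HighP, where 1.5% of tested genes were called higher; these comparisons share no library. In either direction 1.75% of tested genes were called there. Ccl9 and Ccl12 were not called, and Cx3cl1, the most abundant of the 10, was not called either. Several of these genes had passed the filter only or mainly through 5xFAD libraries, so their count is a description. No chemokine was called in any comparison of P with vehicle or in the interaction of genotype with high P.

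**Figure D2:**
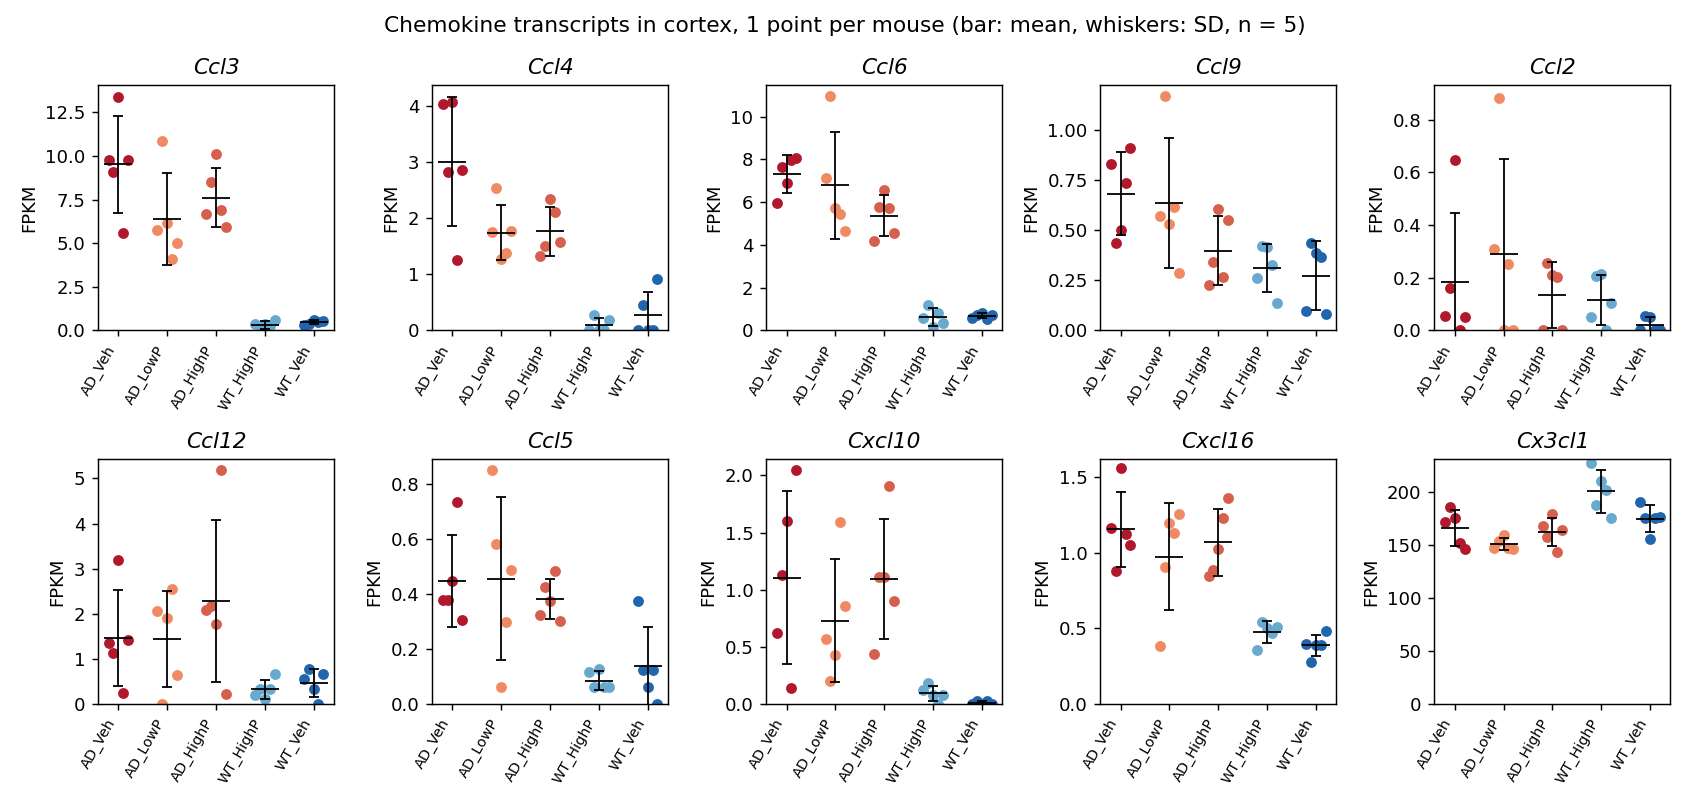
FPKM of each of the 10 chemokines (vertical axes, from 0, with a scale of their own) in the 5 groups, 1 point per mouse; the bar is the mean and the whiskers are the SD of 5 mice. For Ccl3, Ccl4 and Ccl6 all 15 5xFAD mice lie above all 10 wild-type mice, and for Cx3cl1 the genotypes overlap.

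Ccl3 (macrophage inflammatory protein 1-alpha), a Ccr1 ligand, is encoded on the minus strand of chromosome 11 at chr11:83647844-83649355 in mm10 (ENSMUSG00000000982). It stood at 9.79, 9.06, 13.4, 5.60 and 9.78 FPKM in the AD_Veh mice, against 0.313, 0.394, 0.616, 0.463 and 0.554 FPKM in the WT_Veh mice. The lowest AD_Veh mouse lay far above the highest WT_Veh mouse. The log2 fold change was 3.33 (SE 0.23, 95% interval 2.86 to 3.81, adjusted p = 3.74e-10). In AD_HighP it was 6.66, 8.52, 10.1, 6.88 and 5.91 FPKM, against 0.369, 0, 0.395, 0.230 and 0.622 FPKM in WT_HighP, again without overlap (log2 3.33, SE 0.23, adjusted p = 1.17e-09). The wild-type Ccl3 values rest on 0 to 8 reads per library and the 5xFAD values on 55 to 168.

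Ccl4 (macrophage inflammatory protein 1-beta), a CC chemokine, lies next to Ccl3 at chr11:83662584-83664683 on the plus strand (ENSMUSG00000018930). Its values were 4.03, 2.83, 4.08, 1.26 and 2.86 FPKM in AD_Veh, against 0, 0.457, 0, 0 and 0.918 FPKM in WT_Veh. The groups did not overlap, although the lowest AD_Veh mouse and the highest WT_Veh mouse were 0.342 FPKM apart, and the log2 fold change was 2.25 (SE 0.28, adjusted p = 5.85e-06). Ccl4 was at 1.32, 1.50, 2.35, 2.11 and 1.58 FPKM in AD_HighP and at 0, 0.267, 0, 0 and 0.180 FPKM in WT_HighP (log2 1.95, SE 0.28, adjusted p = 9.05e-05). In wild-type mice the gene is close to its detection limit: 6 of 10 libraries held no read of it. The smaller group of females, 2 against 2 mice, gave a log2 fold change of 1.53 with an adjusted p of 0.165, against 2.72 (adjusted p = 0.000157) in males. In AD_HighP against WT_HighP females it was 2.00 (adjusted p = 0.205), against 1.92 in males (adjusted p = 0.00695).

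Ccl6, a Ccr1 ligand found in rodents, is encoded at chr11:83587882-83593087 on the minus strand (ENSMUSG00000018927). It reached 5.96, 7.63, 6.91, 7.98 and 8.05 FPKM in AD_Veh, against 0.602, 0.739, 0.821, 0.527 and 0.743 FPKM in WT_Veh. Its spread within AD_Veh was the smallest of the higher genes relative to its mean (7.31 ± 0.877 FPKM, SD, n = 5), and the log2 fold change was 2.72 (SE 0.21, adjusted p = 2.45e-09). In AD_HighP it reached 4.19, 5.78, 6.55, 5.74 and 4.56 FPKM, against 0.599, 1.21, 0.168, 0.819 and 0.365 FPKM in WT_HighP (log2 2.43, SE 0.21, adjusted p = 3.47e-08). Every 5xFAD mouse lay above every wild-type mouse, as for Ccl3 and Ccl4. Over all tested genes this complete separation of 15 from 10 libraries held for 162, or 0.985%.

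Ccl9, another rodent Ccr1 ligand (chr11:83572919-83578636, minus strand, ENSMUSG00000019122), was 0.684 ± 0.207 FPKM in AD_Veh and 0.274 ± 0.171 FPKM in WT_Veh (SD, n = 5 each). The ranges met at 0.436 FPKM, the lowest AD_Veh value and the highest WT_Veh value. The log2 fold change of 0.62 (SE 0.20) had an adjusted p of 0.110, and after correction for GC content it was 0.70 with an adjusted p of 0.0309, which passed the threshold. In AD_HighP the mean was 0.399 ± 0.172 FPKM, against 0.313 ± 0.120 FPKM in WT_HighP (log2 0.14, adjusted p = 0.868). Ccl5 (RANTES), which binds several CC chemokine receptors, lies at chr11:83525778-83530518 and was too low to judge. It had 35 reads summed over AD_Veh and 11 over WT_Veh, a depth-scaled ratio of 3.24 with a 95% counting interval of 1.61 to 7.08. The sums were 31 in AD_HighP and 7 in WT_HighP (ratio 4.46, 95% interval 1.93 to 12), and all 5 AD_HighP mice (0.302 to 0.483 FPKM) lay above all 5 WT_HighP mice (0.0611 to 0.126 FPKM). These intervals cover counting error only and not the difference between mice. Without the filter on level, the log2 fold changes of Ccl5 were 0.58 (adjusted p = 0.145) and 0.59 (adjusted p = 0.199).

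The CC chemokine genes of this stretch, Ccl5, Ccl9, Ccl6, Ccl3 and Ccl4, lie within 138.9 kb of chromosome 11, and their values differed in size within it. Ccl3, Ccl4 and Ccl6 were called, Ccl9 was not, and the 2 other genes listed inside the stretch were not expressed enough to test. A transcript listed on the opposite strand of Ccl6, E230016K23Rik, averaged 0.00858 FPKM in AD_Veh and 0.00429 FPKM in WT_Veh.

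Upstream sequences are shown for Ccl3 and Ccl6, the CC chemokines with the largest log2 fold changes on the log2(FPKM + 0.5) scale, for Cxcl10, whose wild-type level was near 0, and for Cx3cl1, which was abundant and not called. Each is the 250 bases before the RefSeq transcription start in GRCm38.p6, written 5′ to 3′ on the gene's strand, with capitals marking the motifs searched. The windows are chr11:83649379-83649628 (minus strand) for Ccl3, chr11:83593088-83593337 (minus) for Ccl6, chr5:92348890-92349139 (minus) for Cxcl10 and chr8:94771930-94772179 (plus) for Cx3cl1.
Ccl3: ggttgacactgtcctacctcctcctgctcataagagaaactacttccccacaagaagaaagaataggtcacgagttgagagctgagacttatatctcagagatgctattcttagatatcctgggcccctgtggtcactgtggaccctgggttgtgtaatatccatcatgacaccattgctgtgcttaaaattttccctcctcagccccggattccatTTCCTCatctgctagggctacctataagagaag
Ccl6: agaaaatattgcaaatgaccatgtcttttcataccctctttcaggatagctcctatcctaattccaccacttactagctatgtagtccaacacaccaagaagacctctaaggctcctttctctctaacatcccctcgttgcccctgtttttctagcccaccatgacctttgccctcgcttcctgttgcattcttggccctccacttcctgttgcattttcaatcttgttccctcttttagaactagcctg
Cxcl10: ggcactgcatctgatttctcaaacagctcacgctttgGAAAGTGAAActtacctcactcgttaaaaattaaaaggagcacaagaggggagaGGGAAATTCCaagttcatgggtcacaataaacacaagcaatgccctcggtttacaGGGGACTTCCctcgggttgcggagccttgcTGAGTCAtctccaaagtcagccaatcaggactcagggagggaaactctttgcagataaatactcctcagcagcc
Cx3cl1: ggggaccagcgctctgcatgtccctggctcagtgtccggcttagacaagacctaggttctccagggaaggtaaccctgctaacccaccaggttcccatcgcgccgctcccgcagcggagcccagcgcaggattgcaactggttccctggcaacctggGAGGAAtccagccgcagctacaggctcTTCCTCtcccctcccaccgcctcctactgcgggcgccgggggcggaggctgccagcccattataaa
The motifs, read on both strands, were the NF-kB site (GGG and TTCC with any 3 bases between), the interferon-stimulated response element (GAAA, any 2 bases and GAAA), the PU.1 core GAGGAA and the AP-1 site TGANTCA. Cxcl10 held 2 NF-kB matches (GGGAAATTCC and GGGGACTTCC), 1 interferon-stimulated response element match (GAAAGTGAAA) and 1 AP-1 match (TGAGTCA). Ccl3 held 1 PU.1 core, Cx3cl1 held 2, and Ccl6 held none of the 4 motifs. The Cx3cl1 window runs past position 94772009, the start of the gene in the deposited coordinates. Both of its matches lie after that position, so they are upstream of the RefSeq start only. Of the members whose windows are not shown, Ccl9 held 1 NF-kB match (GGAAAGCCCC on the other strand) and 1 AP-1 match, and Ccl12 held 1 PU.1 core. Among 32851 promoter windows of this length, 4.65% held the NF-kB site, 2.98% the interferon element, 23.3% the PU.1 core and 6.75% the AP-1 site. These matches describe letters and no factor's binding was measured. The sequences of Ccl2, Ccl4, Ccl5 and Cxcl16 are not shown.

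The genes of the Ccr2 ligands Ccl2 and Ccl12 lie within 67.8 kb of chromosome 11 (chr11:82035571-82037453 and chr11:82101845-82103400, both plus strand). Both recruit monocytes, and Ccl12 is a mouse relative of Ccl2 (monocyte chemoattractant protein). Ccl12 was 1.35, 1.12, 3.19, 0.238 and 1.43 FPKM in AD_Veh, against 0.559, 0.786, 0.329, 0 and 0.677 FPKM in WT_Veh. The groups overlapped through 1 AD_Veh mouse, and the log2 fold change of 0.91 had a 95% interval of -0.10 to 1.92 (adjusted p = 0.512). In AD_HighP the values were 2.09, 2.17, 1.78, 5.18 and 0.216 FPKM, against 0.211, 0.328, 0.113, 0.328 and 0.665 FPKM in WT_HighP. There 4 of 5 AD_HighP mice lay above all WT_HighP mice, and the log2 fold change of 1.50 (95% interval 0.50 to 2.51) had an adjusted p of 0.164. Without the low AD_HighP mouse, replicate 5, the log2 fold change was 1.92 and passed the threshold (adjusted p = 0.0299), as it did with array weights (log2 1.70, adjusted p = 0.00411). These were 2 of 40 other settings, over which the log2 fold change ran from 0.96 to 2.27. Ccl12 was not called without the libraries high in Ttr, among them AD_HighP replicate 4, the mouse with 5.18 FPKM. Ccl2 had 17 reads in all 5 AD_Veh libraries together and 2 in all 5 WT_Veh libraries (ratio 8.66, 95% counting interval 2.06 to 77.3). Of those 17 reads, 12 came from AD_Veh replicate 3. Ccl2 had 13 reads in AD_HighP and 11 in WT_HighP (ratio 1.19, 0.492 to 2.93), so no difference was detectable there at this depth.

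Cxcl10 (interferon-gamma-induced protein 10), a Cxcr3 ligand, is encoded at chr5:92346638-92348889 on the minus strand (ENSMUSG00000034855). Its values were 0.618, 1.13, 1.60, 0.142 and 2.04 FPKM in AD_Veh, against 0, 0.0268, 0, 0.0263 and 0 FPKM in WT_Veh. It was close to undetected in WT_Veh and varied most among the called chemokines in 5xFAD mice, 14.4-fold between the lowest and the highest of 15. The AD_Veh libraries held 207 reads and the WT_Veh libraries 2, a ratio of 105.5 with a 95% counting interval of 28.8 to 877. On the log2(FPKM + 0.5) scale the difference was 1.50 (SE 0.30, adjusted p = 0.00343), and it was 5.34 with voom on recovered reads (adjusted p = 0.00769). AD_HighP mice were at 0.442, 1.11, 1.11, 1.90 and 0.902 FPKM, against 0.126, 0.182, 0.0805, 0 and 0.0793 FPKM in WT_HighP. The groups did not overlap there (log2 1.37, SE 0.30, adjusted p = 0.0132). This call was lost without AD_HighP replicate 4, the mouse with 1.90 FPKM (adjusted p = 0.0636), and without the libraries high in Ttr (log2 1.48, adjusted p = 0.153). By sex the log2 fold changes of this comparison were 1.77 in females (adjusted p = 0.348) and 1.10 in males (adjusted p = 0.101). In AD_Veh against WT_Veh they were 1.32 in females (adjusted p = 0.283) and 1.62 in males (adjusted p = 0.00641). Art3, which overlaps Cxcl10 on the opposite strand, was 0.746 ± 0.138 FPKM in AD_Veh and 0.775 ± 0.170 FPKM in WT_Veh (adjusted p = 0.967). It was 1.04 ± 0.165 FPKM in AD_HighP and 0.692 ± 0.165 FPKM in WT_HighP (log2 0.37, adjusted p = 0.257). These groups did not overlap, as held for 3.22% of tested genes with AD_HighP higher. Whether Art3 reads entered the Cxcl10 values was not tested.

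Cxcl16, the membrane-bound ligand of Cxcr6, is encoded at chr11:70453983-70459984 on the minus strand (ENSMUSG00000018920), outside both chemokine stretches of that chromosome. It was 1.16, 0.879, 1.56, 1.12 and 1.05 FPKM in AD_Veh, against 0.397, 0.280, 0.390, 0.392 and 0.482 FPKM in WT_Veh. The groups did not overlap, and the rise was the smallest of the 5 (log2 0.89, SE 0.16, adjusted p = 0.000751). In AD_HighP it was 0.844, 0.887, 1.03, 1.23 and 1.36 FPKM, against 0.356, 0.544, 0.50, 0.467 and 0.512 FPKM in WT_HighP (log2 0.68, SE 0.16, adjusted p = 0.0194). That call was lost without WT_HighP replicate 1 (adjusted p = 0.0711), AD_HighP replicate 4 (0.0717) or AD_HighP replicate 5 (0.0746), and without the libraries high in Ttr (log2 0.67, adjusted p = 0.377). It was 0.86 in females (adjusted p = 0.159) and 0.56 in males (adjusted p = 0.415). In AD_Veh against WT_Veh the values were 0.76 in females (adjusted p = 0.0984) and 0.97 in males (adjusted p = 0.0475). Over all 5 groups, 14 of 15 5xFAD mice lay above the highest wild-type mouse for Cxcl16, and likewise for Cxcl10. The 5 called chemokines showed no overlap in either comparison. They were picked by calls on the same values, which favours separation, so this is a description. Over all tested genes, 3.02% separated in this way with AD_Veh higher than WT_Veh, and 3.22% with AD_HighP higher than WT_HighP.

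Cx3cl1 (fractalkine), the ligand of Cx3cr1, is encoded at chr8:94772009-94782427 on the plus strand (ENSMUSG00000031778). It was 172, 186, 176, 152 and 146 FPKM in AD_Veh, against 191, 176, 156, 176 and 177 FPKM in WT_Veh. The groups overlapped throughout, and the log2 fold change of -0.08 had a 95% interval of -0.24 to 0.09 (adjusted p = 0.818). In AD_HighP it was 168, 157, 180, 144 and 164 FPKM, against 227, 188, 211, 202 and 176 FPKM in WT_HighP. These groups overlapped at the margin, with 1 AD_HighP mouse above the lowest WT_HighP mouse, and the log2 fold change of -0.30 (SE 0.08) had an adjusted p of 0.0591. The GC content of Cx3cl1 was 57.1%, against a median of 49.7% over tested genes, and the GC slopes of AD_HighP and WT_HighP libraries differed. After correction for GC content the log2 fold change was -0.21 (adjusted p = 0.449). The threshold was passed without WT_HighP replicate 5 (adjusted p = 0.0279), AD_HighP replicate 3 (0.0412) or AD_Veh replicate 5 (0.0468), which enters through the shared variance, with sex as a covariate (0.0297) and with array weights (log2 -0.32, adjusted p = 0.00341).

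**Figure D3:**
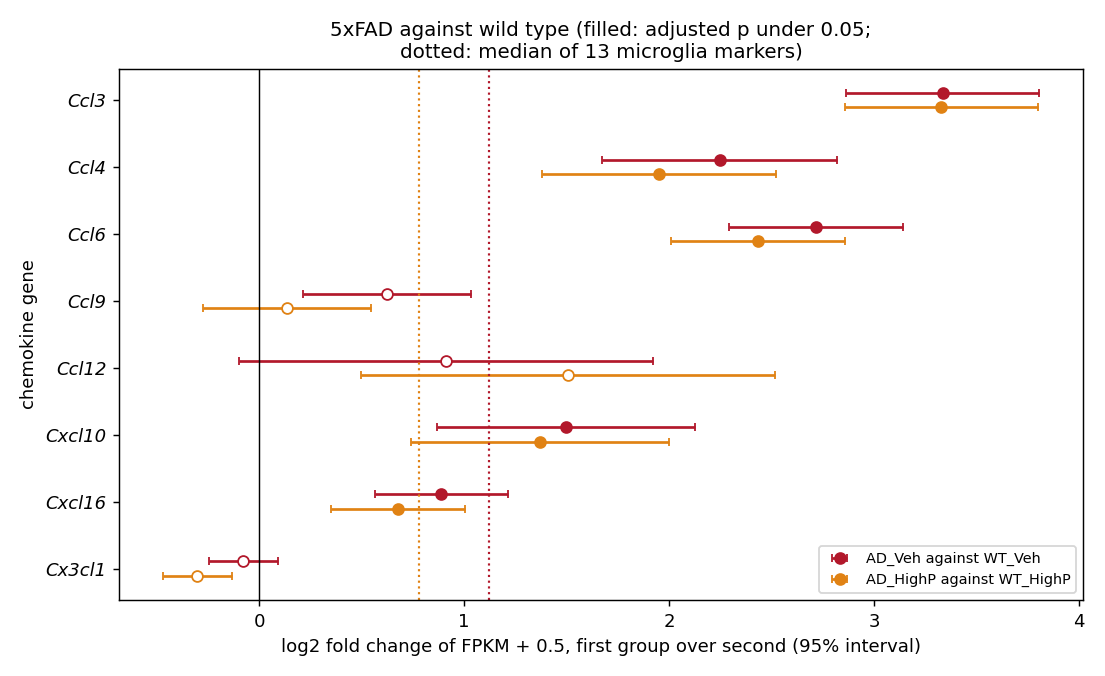
Log2 fold changes of FPKM + 0.5 (horizontal axis) with 95% intervals for the 8 tested chemokines in AD_Veh against WT_Veh and in AD_HighP against WT_HighP; filled points passed an adjusted p of 0.05, and dotted lines mark the median of the 13 microglia markers in each comparison. Ccl3, Ccl4 and Ccl6 lie to the right of both dotted lines with their whole intervals, and Cx3cl1 lies at -0.08 and -0.30.

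Transcripts of microglia as a class were also higher in 5xFAD cortex. Of the 13 markers, 9 were called higher in AD_Veh than in WT_Veh, with a median log2 fold change of 1.12, and 8 in AD_HighP than in WT_HighP, with a median of 0.78; the medians over all tested genes were -0.02 and 0.00. The microglial markers P2ry12 (log2 0.50, adjusted p = 0.136) and Tmem119 (log2 0.48, adjusted p = 0.242) were not called in AD_Veh against WT_Veh. In AD_HighP against WT_HighP their log2 fold changes were 0.61 (adjusted p = 0.0613) for P2ry12 and 0.03 (adjusted p = 0.975) for Tmem119, neither of them called. In whole tissue, more cells of a type and more RNA per cell cannot be told apart. Markers of blood cells were low: the 12 monocyte and neutrophil markers summed to 2.05 to 6.90 FPKM in AD_Veh and 1.71 to 3.57 FPKM in WT_Veh. The 12 T and NK cell markers summed to 3.46 to 7.62 FPKM in AD_Veh, against 1.96 to 13.3 FPKM in WT_Veh, and the 8 border macrophage markers to 2.40 to 5.75 FPKM, against 2.04 to 3.50 FPKM. None of the tested markers in these 3 lists (3, 2 and 4 genes) was called, and in AD_Veh libraries Cd3d of T cells and Ncr1 of NK cells were at 0, whereas in WT_Veh libraries Ly6g of neutrophils and Gzma of cytotoxic cells were at 0. In AD_HighP and WT_HighP the sums ran from 1.35 to 4.95 and 1.56 to 3.24 FPKM for monocytes and neutrophils, from 1.60 to 5.35 and 1.45 to 6.98 FPKM for T and NK cells, and from 2.11 to 6.38 and 1.83 to 3.54 FPKM for border macrophages. Single genes led 2 of these sums. Over all libraries Vcan averaged 1.52 FPKM, against 0.036 FPKM for Ccr2 and 0.068 FPKM for Ly6c2. Cd4 averaged 3.47 FPKM, against 0.027, 0.028 and 0.026 FPKM for Cd3d, Cd3e and Cd3g. The part that any of these cell types had in the chemokine levels was not tested.

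Set against the microglia markers of the same mouse, the chemokines fell into different ranges. The log2 level of Ccl3 minus the mean log2 level of the 13 markers was -0.76 ± 0.44 in AD_Veh and -3.04 ± 0.33 in WT_Veh (SD, n = 5 each), so Ccl3 was 2.27 log2 units higher relative to the markers. The corresponding difference was 1.66 for Ccl6 and 1.19 for Ccl4. In AD_HighP against WT_HighP these differences were 2.53 for Ccl3, 1.64 for Ccl6 and 1.15 for Ccl4. Cxcl10 differed by 0.44 in the vehicle groups and 0.57 at high P, and the next pairs follow that order. For Cxcl16 the differences were -0.17 and -0.12 log2 units: relative to the markers it stood at -3.33 ± 0.13 in AD_Veh and -3.16 ± 0.28 in WT_Veh. Ccl9 came to -0.44 and -0.66, Ccl12 to -0.15 and 0.71, and Cx3cl1 to -1.14 and -1.10. These differences are a description without a test, and they hold on the log2(FPKM + 0.5) scale only. Ccl3 (0.468 FPKM), Ccl4 (0.275 FPKM), Cxcl10, Cxcl16, Ccl9 and Ccl12 were below the added 0.5 FPKM on average in WT_Veh, which shrinks their differences. With voom on recovered reads, the log2 fold changes of Cxcl10, Cxcl16, Ccl9 and Ccl12 in AD_Veh against WT_Veh were 5.34, 1.54, 1.53 and 1.66. Those of Ccl3, Ccl4 and Ccl6 were 4.22, 4.42 and 3.39. So the order of Ccl3, Ccl6, Ccl4 and Cxcl10 depends on the scale. The negative signs of Cxcl16, Ccl9 and Ccl12 in the vehicle groups may depend on it too. That was not settled, because the median of 1.12 of the microglia markers is from limma and no voom value is given for them.

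**Figure D4:**
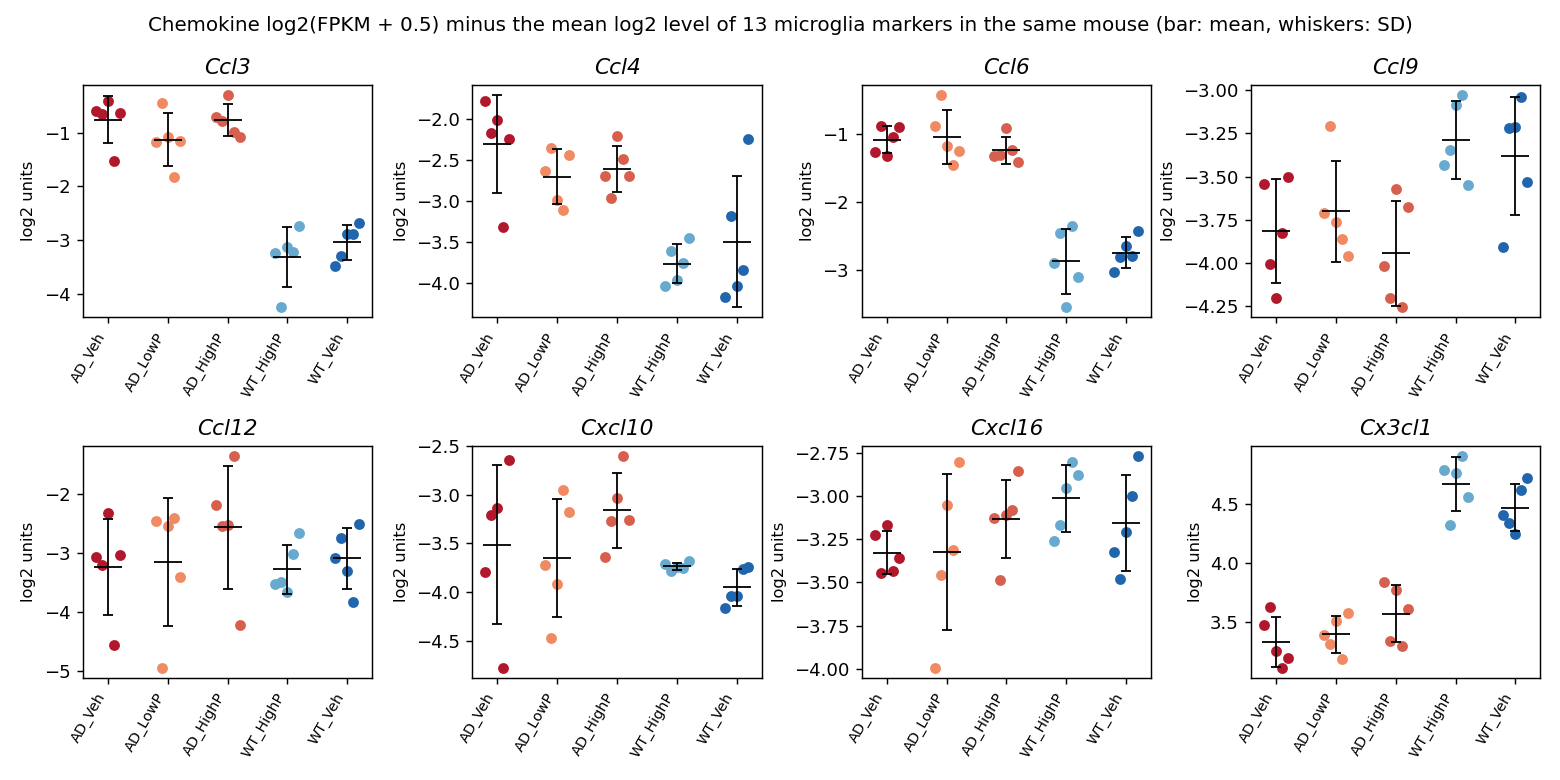
Log2(FPKM + 0.5) of each tested chemokine minus the mean log2 level of 13 microglia markers in the same mouse (vertical axes in log2 units, each with its own range), 1 point per mouse, with the mean and SD of 5 mice. Ccl3 averages -0.76 in AD_Veh and -3.04 in WT_Veh, whereas Cxcl16 averages -3.33 in AD_Veh and -3.16 in WT_Veh.

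Other genes of the chemokine system were set beside the share of all tested genes called higher. That share was 2.83% in AD_Veh against WT_Veh and 1.5% in AD_HighP against WT_HighP. Of 27 further chemokine ligands 9 were tested, and 1 was higher in AD_Veh than in WT_Veh. This was Cxcl5, a Cxcr2 ligand that attracts neutrophils (0.846 ± 0.424 FPKM, against 0.0961 ± 0.0554 FPKM, log2 1.13, adjusted p = 0.00673). It was also called in AD_HighP against WT_HighP (log2 1.07, adjusted p = 0.0163). Of 24 receptors 7 were tested, and 1 was called. Cx3cr1, the Cx3cl1 receptor and also one of the microglia markers, averaged 28.5 ± 2.54 FPKM in AD_Veh and 11.96 ± 2.24 FPKM in WT_Veh (log2 1.23, SE 0.13, adjusted p = 6.37e-07). Several receptors of the 10 ligands were below the filter. Ccr1 averaged 0.145 FPKM in AD_Veh and 0.0595 FPKM in WT_Veh. Ccr2 averaged 0.0343 FPKM in AD_Veh and 0.0302 FPKM in WT_Veh. Cxcr3 averaged 0.0704 FPKM in AD_Veh and 0.109 FPKM in WT_Veh, and Cxcr6 averaged 0.170 FPKM in AD_Veh and 0.150 FPKM in WT_Veh. These 4 receptor transcripts were too low in this tissue to judge.

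Of the 5 tested genes linked to release of the membrane-bound ligands, Ctss (cathepsin S, a microglial protease that can cleave Cx3cl1) was called, with 119 ± 19.7 FPKM in AD_Veh and 35.3 ± 4.45 FPKM in WT_Veh (log2 1.73, adjusted p = 4.48e-08). Adam10 (20.5 ± 1.99 against 21.4 ± 2.40 FPKM, adjusted p = 0.886) and Adam17 (2.95 ± 0.161 against 2.44 ± 0.317 FPKM, adjusted p = 0.392) were not called. For these genes and the lists that follow, 2.83% of all tested genes were called higher in AD_Veh against WT_Veh and 1.5% in AD_HighP against WT_HighP. On the NF-kB and Toll-like receptor side 3 of 19 genes were higher: the lipopolysaccharide co-receptor Cd14 (log2 2.33), Tlr2 (1.61) and the kinase Irak4 (0.54). The other 16 were not called. On the interferon side 3 of 14 were higher, namely the myeloid transcription factor Irf8 (log2 1.33), Irf9 (0.84) and the receptor chain Ifnar2 (0.46), and 11 were not called. Among 16 tested genes of chemokine receptor signalling 6 were higher. Those with the largest changes were the exchange factor Vav1 (log2 1.40), the GTPase Rac2 (1.01), the exchange factor Dock2 (0.92) and the kinase Lyn (0.65). The median log2 fold changes of these lists were 0.11, 0.25 and 0.40. None of the 6 lists had a gene called lower. In AD_HighP against WT_HighP the counts called higher were 2 of 19, 2 of 14 and 3 of 16, and Ctss and Cx3cr1 were called again.

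P was compared with vehicle within each genotype. No chemokine was called in AD_LowP against AD_Veh or in AD_HighP against AD_Veh, where 0% and 0.00608% of all tested genes were called. Ccl3 was 9.53 ± 2.78 FPKM in AD_Veh, 6.38 ± 2.62 FPKM in AD_LowP and 7.62 ± 1.69 FPKM in AD_HighP (SD, n = 5 each). In AD_LowP its mice were at 5.78, 10.9, 6.14, 4.10 and 5.02 FPKM, so that 2 lay below the lowest AD_Veh mouse, 2 lay between it and the next and 1 lay among the others. The log2 fold change against AD_Veh was -0.57 at the low dose (95% interval -1.04 to -0.09, unadjusted p = 0.0207, adjusted p = 1). At the high dose it was -0.28 (-0.75 to 0.19, adjusted p = 0.792). Ccl4 was 3.01 ± 1.15 FPKM in AD_Veh, 1.75 ± 0.494 FPKM in AD_LowP and 1.77 ± 0.436 FPKM in AD_HighP. The AD_LowP mice were at 1.76, 2.54, 1.28, 1.38 and 1.77 FPKM, all between the lowest AD_Veh mouse and the others. Its log2 fold changes against AD_Veh were -0.59 at the low dose (95% interval -1.17 to -0.02, unadjusted p = 0.0425, adjusted p = 1) and -0.57 at the high dose (-1.14 to 0.00, adjusted p = 0.780).

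Ccl6 was 7.31 ± 0.877 FPKM in AD_Veh, 6.78 ± 2.50 FPKM in AD_LowP and 5.36 ± 0.967 FPKM in AD_HighP, and the AD_LowP mean rested on 1 mouse at 10.9 FPKM among others at 4.64 to 7.13 FPKM. The log2 fold changes were -0.15 (95% interval -0.58 to 0.27) and -0.42 (-0.85 to 0.00). Ccl9 was 0.684 ± 0.207, 0.637 ± 0.326 and 0.399 ± 0.172 FPKM in AD_Veh, AD_LowP and AD_HighP. Cxcl10 was 1.11 ± 0.757, 0.729 ± 0.540 and 1.09 ± 0.529 FPKM in that order, and Cxcl16 was 1.16 ± 0.250, 0.975 ± 0.355 and 1.07 ± 0.222 FPKM. Ccl12 was 1.47 ± 1.07, 1.43 ± 1.06 and 2.29 ± 1.80 FPKM, with the widest intervals of the 8 tested chemokines (log2 -1.12 to 0.90 at the low dose and -0.61 to 1.41 at the high dose). Cx3cl1 was 166 ± 16.7, 151 ± 5.74 and 163 ± 13.1 FPKM, with the narrowest intervals of the 8 (log2 -0.30 to 0.03 and -0.20 to 0.14). All 8 tested chemokines had a lower mean log2 level in AD_LowP than in AD_Veh, with a median of -0.17, and so did all 13 microglia markers, with a median of -0.19. Over all tested genes the median was -0.01, and 7701 of 16450 were positive. Other lists were lower in AD_LowP too: 0 of 9 endothelial and mural markers (median -0.16) and 0 of 5 oligodendrocyte markers (-0.26) were positive. Of the astrocyte and neuron markers, 2 of 8 and 4 of 8 were positive. In AD_HighP against AD_Veh the median was -0.18 for the 8 chemokines, 2 of them positive. There it was -0.30 for the 13 markers, none of them positive, and 0.00 over all tested genes. These 2 comparisons share the AD_Veh libraries, of which replicate 4 was the lowest of 5 for Ccl3, Ccl4, Ccl12 and Cxcl10. The summed FPKM of the 9 chemokines other than Cx3cl1 was 24.9 ± 5.25 in AD_Veh, 19.4 ± 5.09 in AD_LowP and 20.1 ± 4.20 in AD_HighP. It was 2.46 ± 0.510 in WT_HighP and 2.73 ± 0.650 in WT_Veh.

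**Figure D5:**
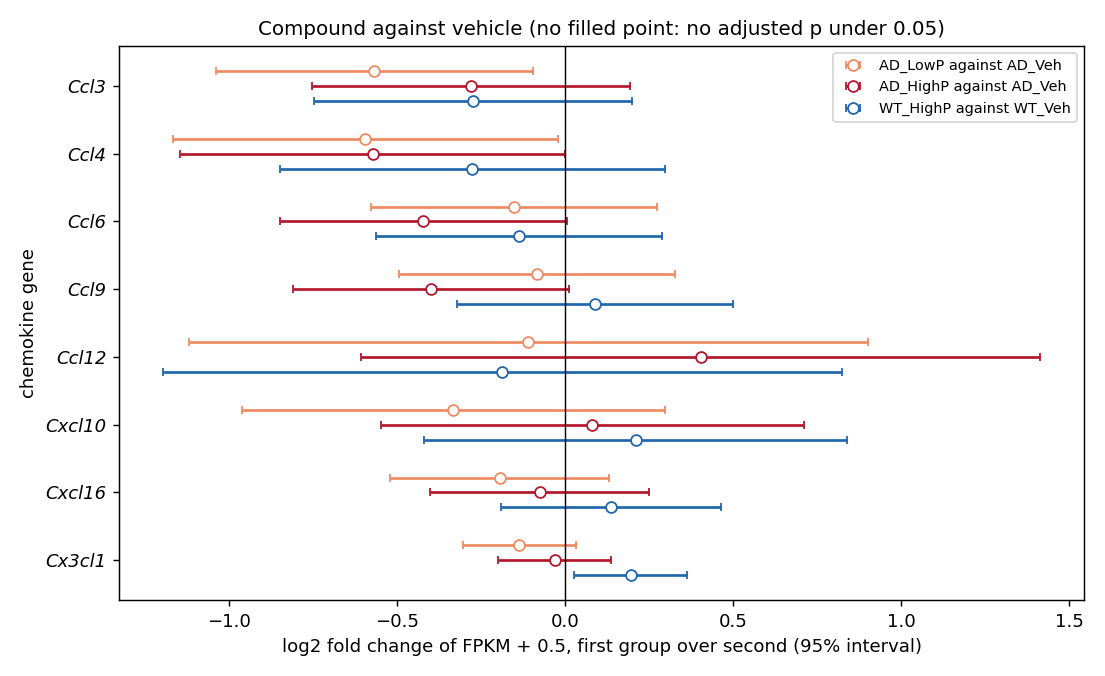
Log2 fold changes of FPKM + 0.5 (horizontal axis) with 95% intervals for the 8 tested chemokines in AD_LowP against AD_Veh, AD_HighP against AD_Veh and WT_HighP against WT_Veh; all points are open because none passed an adjusted p of 0.05. Ccl3 and Ccl4 lie at -0.57 and -0.59 in AD_LowP, and the intervals of Ccl12 are the widest.

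No chemokine was called between the doses: in AD_HighP against AD_LowP, 0% of tested genes were called, and the log2 fold changes ran from -0.32 for Ccl9 to 0.51 for Ccl12, both with intervals that held 0. In WT_HighP against WT_Veh, 3.17% of tested genes were called and no chemokine was. That share rested on single libraries: the 522 genes became 2724 without WT_Veh replicate 1, and at most 88 without any 1 of WT_Veh replicates 2 to 5 or WT_HighP replicates 1 to 4. Cx3cl1 was 201 ± 20.1 FPKM in WT_HighP and 175 ± 12.4 FPKM in WT_Veh, a log2 fold change of 0.19 (95% interval 0.03 to 0.36, unadjusted p = 0.0245, adjusted p = 0.125). With array weights it was called, and after correction for GC content the value was -0.10 (adjusted p = 0.807), so its direction depended on that correction. Across genes, the log2 fold changes of this comparison followed GC content (Spearman rho 0.711, a description over genes of the same libraries). Cxcl10 was at 18 reads in WT_HighP and 2 in WT_Veh, and the groups overlapped. In limma its log2 fold change was 0.21 (95% interval -0.42 to 0.84, adjusted p = 0.686). The interaction of genotype with high P was called for 0% of tested genes, with values from -0.49 for Ccl9 to 0.59 for Ccl12. For Ccl3 it was -0.01, with a 95% interval of -0.67 to 0.66, and Cx3cl1 had the lowest adjusted p (-0.23, adjusted p = 0.713). At an unadjusted p under 0.05, limma listed 491 genes (2.98% of tested genes) for AD_LowP and 983 (5.98%) for AD_HighP, both against AD_Veh. It listed 1019 (6.19%) for AD_HighP against AD_LowP and 1138 (6.92%) for the interaction. Of the 8 tested members, Ccl3 and Ccl4 were on the list for AD_LowP and none was on the other 3. Voom on recovered reads called 0 genes in these 4 comparisons. At an unadjusted p under 0.05 it listed Ccl3 for AD_LowP, Ccl6 for AD_HighP against AD_Veh and no member for the other two. In WT_HighP against WT_Veh, limma listed 4581 genes (27.8%) at that level, Cx3cl1 among them, and voom called 716 genes but no chemokine.

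Within the 15 5xFAD mice, after removal of group means, the closest pair of chemokines was Ccl3 and Ccl4 (Pearson r 0.776, and 0.787 after correction for GC content). Ccl6 with Ccl9 (r 0.636) and Ccl12 with Cxcl10 (r 0.615) followed. After correction for GC content these were 0.462 and 0.626, and Ccl3 with Ccl6 (0.536), Ccl6 with Cx3cl1 (0.505) and Ccl3 with Cx3cl1 (0.463) lay above Ccl6 with Ccl9. The closest partner of Cxcl16 was Cxcl10, with r 0.241, and 0.249 after correction for GC content. The values of a pair come from the same libraries, so these are descriptions over 15 points that share depth and base composition. Among 13092 other genes the closest to Ccl3 were Tmod1 (r 0.900), Parn (0.885) and Rfc1 (0.878), and the closest to Cxcl16 was Gm43587 (0.939). After correction for GC content, none of the 3 closest genes was shared with the uncorrected values for Ccl3, Ccl4, Ccl6 or Cx3cl1, 1 was for Ccl9 and Ccl12, and 2 were for Cxcl10 (Msl3l2 and Fam58b) and Cxcl16.

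In each group Cx3cl1 was the highest of the 10 per length and did not overlap the next. It made up 87.0% of their summed FPKM in AD_Veh, 88.6% in AD_LowP, 89.0% in AD_HighP, 98.8% in WT_HighP and 98.5% in WT_Veh. In AD_Veh the order continued with Ccl3 and Ccl6, which overlapped each other and lay above Ccl4, and from Ccl4 down to Ccl2 each neighbour overlapped the next. In WT_Veh Ccl6 came second and every neighbour below Cx3cl1 overlapped the next. Genes farther apart in that order could still be told apart: Ccl6 at 0.527 to 0.821 FPKM and Ccl3 at 0.313 to 0.616 FPKM lay above Cxcl10 at 0 to 0.0268 FPKM in every WT_Veh mouse.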

How the data were processed

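Libraries were strand-specific and prepared from poly(A) RNA, per the labels' protocols. HISAT2 and mm10 are named in the submitters' processing notes; the HISAT2 version, the counting tool, its strand setting and the annotation are not stated in the sources used. The authors deposited FPKM per gene and library, and a gene length in bp in a separate column. Multiplying FPKM by length turned 100% of values into whole reads (tolerance 0.01 read) once each library's step was found; recovered totals ranged from 15518358 to 17698222. The median SE of the log2 fold changes was 0.15 for 5 against 5 mice and 0.21 for the interaction. No pair of libraries was alike within sampling noise (chi-square per gene at least 5.20), so all 25 libraries entered the analysis, and 0 sample columns were left out.

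Values were transformed as log2(FPKM + 0.5). All 25 libraries entered 1 model of group means in limma 3.58.1 (R 4.3.3, moderated variances with an intensity trend, 20 residual degrees of freedom) for 16450 genes at 0.5 FPKM or more in at least 5 libraries. Tests were two-sided, with Benjamini-Hochberg adjustment over those genes within each of 7 contrasts and a threshold of 0.05. The fitting code was tested on simulated data with known changes. Alternatives were other pseudocounts, filters and scalings, GC correction, sex, the replicate block, array weights, voom on recovered reads, the compared groups alone, and leaving out libraries. A chemokine was too low to judge when it failed the filter or had a median under 10 reads in every group. Intervals on read ratios are exact, at 95%, and cover counting error only, since PCR duplicates cannot be recognised.

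The series design describes the replicates as different mice. The 10 members, the gene lists and the rule for naming genes (all members, receptors of them, Adam10, Adam17 and Ctss, and at most the 4 largest called changes per list; the microglia markers named were chosen after their values were seen) were chosen with earlier results of these data known. Coordinates are those of the deposited table; GC content and 98.3% matching coordinates came from a GENCODE annotation, and promoters of 6 members from RefSeq GRCm38.p6. The library preparation keeps strand, but with the counting setting unknown, reads of Ccl2, Ccl6, Cxcl10 and Cxcl16 may include those of a gene on the opposite strand. Results for some genes of these lists are not reported here.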

Additional observations from a re-analysis of the deposited data

Results flagged for a closer look

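Of 50 groups of 5 mice (10 chemokines in 5 groups), 1 held a mouse apart from the others: Ccl2 in AD_Veh replicate 3 was at 0.645 FPKM (12 reads), against 0 to 0.159 FPKM in the other 4. Chance alone sets apart about 1 in 20 such groups, and Ccl2 was too low to judge.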

How the results depend on the processing

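Of 40 other settings for each comparison, the calls of Ccl3 and Ccl6 held in all 40 for both genotype comparisons, and no called value changed direction. In AD_Veh against WT_Veh, 5 chemokines were called and 2 were with females alone; leaving out each library in turn gave 5 to 5, and GC correction gave 6. In AD_HighP against WT_HighP, 5 were called, against 3 with males alone, 2 with females alone and 3 without the libraries high in Ttr; leaving out each library gave 3 to 6 and array weights gave 7. These subsets hold fewer mice. In WT_HighP against WT_Veh, 0 were called and 1 (Cx3cl1) with array weights; the cause was not tested. In the P comparisons and the interaction the count stayed at 0 in the other settings, including leave-one-out (0 to 0). Signs that were not called did change in the subsets by sex. In AD_LowP against AD_Veh, Ccl6 and Ccl9 were positive with males alone, and Ccl12, Cxcl10 and Cxcl16 with females alone. The GC slopes of females were -0.102 and -0.251 in AD_Veh and 0.159 and 0.158 in AD_LowP. Those of males were 0.114, 0.065 and -0.037 in AD_Veh and -0.282, -0.278 and 0.023 in AD_LowP. Sex and GC slope therefore cannot be told apart in these sign changes. A filter of 1 FPKM in 5 libraries removed Ccl9.

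The replicate block left 5, 5 and 0 chemokines called in the genotype and P comparisons. Replicate numbers did not pair the mice: same-numbered libraries of different groups correlated at -0.379 to 0.273 over 50 pairs, 11 of them over 0.1, and 5 of 25 libraries correlated best with their own number. Over all genes the block gave 218 calls in WT_HighP against WT_Veh, against 522 without it.

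Counts over all genes moved more. AD_Veh against WT_Veh gave 510 (males 309, females 215, array weights 811). AD_HighP against WT_HighP gave 288 (males 124, females 76, array weights 970, compared groups alone 517, without high Ttr 131). WT_HighP against WT_Veh gave 522 (0 to 2724 leaving out each library), and 0 with no filter, males alone or without high Ttr, 22 with GC correction, 829 with sex as covariate, 1513 with the compared groups alone, 2278 with females alone and 3371 with array weights. AD_LowP against AD_Veh gave 0 (females alone 751, males alone or no filter 2), AD_HighP against AD_Veh 1 (0 to 14), AD_HighP against AD_LowP 0 (males alone 329) and the interaction 0 (array weights 9). The GC slopes of AD_Veh and AD_LowP females did not overlap, so the 751 calls in females cannot be assigned to sex. Depth limits Ccl2, Ccl5 and the wild-type levels of Ccl4 and Cxcl10.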
